A study of Mus musculus with 4 samples.

Results

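The numbered Zfp genes of the mouse, protein-coding genes whose symbol is Zfp followed by digits alone, were examined in 2-cell embryos cultured with or without DMSO. The annotation holds 365 such genes, of which 364 were in the expression table. Zfp352, Zfp42 and Zfp57 were set aside by name, which left 361 genes. Of these, 190 averaged 2 TPM or more across all 4 libraries and make up the set described here, out of 30049 genes in the table. TPM, the unit of the table, scales a gene's reads by transcript length and by the library total. Another 42 genes had a mean from 1 to under 2 TPM, 107 had a mean above 0 and under 1 TPM, and 22 were listed at 0 in all libraries. Symbol and expression level chose the set, with earlier results of these data known. The levels of its members are therefore a description. A total of 161 members reached this limit in both groups, 19 passed through the control group alone and 10 through the DMSO group alone. A gene that passed through 1 group alone was bound to have the higher mean in that group, which holds for 7 of the members called lower and 3 of those called higher.

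Zygotes were wild type and came from matings between BDF1 mice, which are F1 hybrids of C57BL/6 with DBA/2. Culture lasted 24 h and used KSOM, which is made for preimplantation embryos. The DMSO group received 2% dimethyl sulfoxide, a common solvent and cryoprotectant, and the control group received none. Embryos that had reached the 2-cell stage were pooled, 50 per group by the labels, and RNA was amplified with a low-input kit and sequenced. Each group has 2 libraries, numbered replicate 1 and replicate 2. Nothing states that the replicates came from separate cultures, so p-values measure the spread between these libraries, which may be technical. An exact permutation test of 2 against 2 libraries cannot go below p = 0.33, and the tests therefore rest on limma, a linear model that shares variance information between genes. Both libraries of a group correlated across 12038 genes at r = 0.96 (control) and r = 0.95 (DMSO), against 0.81 to 0.91 between groups.

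Zinc finger proteins of the C2H2 type bind DNA through repeated fingers, each folded around a zinc ion by a pair of cysteines and a pair of histidines. Many of them also carry a KRAB domain at the start of the protein. The KRAB domain recruits the corepressor Trim28, which brings the histone H3 lysine 9 methyltransferase Setdb1 and HP1 proteins to the bound site. In early embryos and embryonic stem cells this machinery is known for silencing endogenous retroviruses and for protecting imprinted genes. KRAB zinc finger genes multiplied by local duplication, and many sit in clusters of near-copies.

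A listed 0 in this table does not show that a transcript was absent. Actb, the gene of cytoplasmic actin, was listed at 1.09 and 0.706 TPM in control replicates 1 and 2 and at 8.58 and 0 TPM in DMSO replicates 1 and 2. Polr2a, the largest subunit of RNA polymerase II, was listed at 0.205, 0.860, 0.417 and 0 TPM in the same order. Both are genes that every cell uses, whereas Gapdh stood at 126.5, 73.2, 86.4 and 89.0 TPM. These control genes were looked up after values had been seen. The labelled stage was checked with marker genes. Transcripts typical of the 2-cell embryo were present, led by Tcstv3 at 297.1, 209.4, 715.6 and 573.8 TPM, and all 8 cumulus or granulosa cell genes had means under 1 TPM. Duxf3, which is known to be transcribed briefly before this time, was under 1 TPM in each library.

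Near-identical sequence limits what a short-read value can say about one gene of a cluster. The 3 words of coding sequence below, each 31 bases long, are shown because they were the most widely shared among the members. The capitals mark the codons of the linker that joins neighbouring fingers in word 1, of the cysteine pair of a finger in word 2, and of a core stretch of the KRAB A box in word 3.
word 1: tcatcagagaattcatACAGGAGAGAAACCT
word 2: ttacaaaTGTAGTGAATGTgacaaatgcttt
word 3: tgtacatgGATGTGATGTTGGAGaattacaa
Word 1 occurred in the transcripts of 22 members and of 39 genes in all, word 2 in 18 members and 32 genes, and word 3 in 14 members and 23 genes. Every member with one of these words lay on chromosome 4 or 17, with 15, 12 and 11 members on chromosome 4 for the 3 words and 7, 6 and 3 on chromosome 17. In Zfp534, on the minus strand of GRCm38, all 3 words lie in coding exons, at chr4:147675326-147675356, chr4:147674456-147674486 and chr4:147678234-147678264. Over all members, a median of 4.77% of a gene's 31-base words also occurred in transcripts of other genes, 125 members shared under 10% and 17 shared 50% or more.

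Numbered Zfp genes were more often lower than higher in DMSO-treated embryos. The log2 fold change (DMSO against control, on the log2(TPM + 1) scale, which understates changes of low genes) was below 0 in 118 members and above 0 in 72. Its median was -0.22 (quartiles -0.90 and 0.37, n = 190), against -0.09 for the 12038 genes tested, which averaged 1 TPM or more, and -0.12 for the 10033 of them that averaged 2 TPM or more, as the members do. Under quantile normalisation these medians were -0.118, 0.005 and -0.003, in the same order. Without this normalisation, the median level of the members had an SD of 0.12 between libraries of a group (log2 scale). Above 0 were 37.9% of members, 46.8% of all genes tested and 45.9% of those at 2 TPM or more. At a Benjamini-Hochberg adjusted p under 0.05 in limma, 33 members were lower and 6 higher. Together that is 39 of 190 or 20.5% of members, and the share called among all genes tested was also 20.5%. Genes called higher made up 3.16% of members and 6.42% of all genes tested, and genes called lower 17.4% and 14.1%. Among the 10033 genes, 23.4% were called, 7.22% higher and 16.2% lower. Among the 161 members that reached the limit in both groups, 26 were lower and 3 higher. Of the 8751 genes tested that did so, 22.5% were called, 15.8% lower and 6.68% higher, against 18.0% of these members. Both DMSO libraries lay below both control libraries for 82 members and above them for 40. The share of all genes tested with such a split was 38.7% below and 31.1% above.

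**Figure D1:**
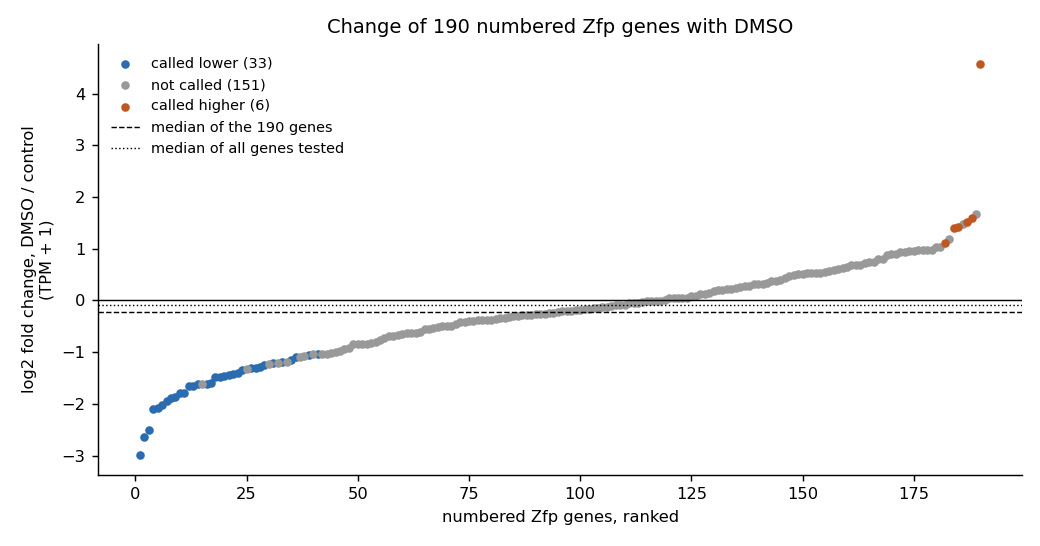
Log2 fold change (DMSO against control, TPM + 1) of the 190 numbered Zfp genes in rank order, with called genes coloured; the dashed line is the median of these genes (-0.22) and the dotted line that of all genes tested (-0.09). The 33 genes called lower fill most of the left end, 6 genes called higher lie at the right end, and the highest point is Zfp791, with a listed 0 in each control library.

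The calls depended on the libraries, on the filter, on scaling and on whether replicate number entered the model. With replicate number as a block, limma called 77 of 190 members, against 5132 of the 12038 genes tested. Higher calls made up 31.3% of all calls without the block, 41.9% with it and 49% under quantile normalisation. Elsewhere, calls are those without this replicate block unless it is named. Leaving out a library leaves 1 library in its group. Some or all calls were then lost, among the members and also among all genes tested, so the loss was not particular to the members. With no filter on low values limma called 0 of the 22257 genes fitted, so none of the 39 calls remained (65 members and 5368 of all genes at an unadjusted p under 0.05). No called gene changed direction in these settings, but only quantile normalisation could have reversed one. Groups did not overlap in any called member, so leaving out a library could not reverse it. The filter and the block leave the log2 fold change as it was.

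Of the 6 members called higher, Zfp791 ranked first. Both control libraries listed it at 0, and DMSO replicates 1 and 2 listed 26.6 and 19.9 TPM (adjusted p = 0.00852). Given the zeros listed for widely used genes, no fold is stated for it. Zfp750, whose human counterpart drives the final differentiation of epidermal cells, stood at 3.20 and 2.13 TPM in controls and at 11.3 and 8.81 TPM with DMSO. Its log2 fold change was 1.60 (SE 0.34, adjusted p = 0.0289). Zfp616 stood at 1.32 and 1.07 TPM against 7.41 and 3.72 TPM (log2 fold change 1.52, SE 0.40, adjusted p = 0.0422). In all 3 genes both DMSO libraries were above both control libraries, and Zfp791 and Zfp616 entered the set through their DMSO means alone, so the rule fixed their direction. Zfp54 and Zfp51 are neighbours on chromosome 17. Zfp54 rose from 7.01 and 3.50 TPM to 14.9 and 15.3 TPM (log2 fold change 1.42, SE 0.37, adjusted p = 0.0425). Zfp51, the most abundant of the 6, rose from 67.5 and 48.0 TPM to 145.5 and 106.3 TPM (log2 fold change 1.11, SE 0.30, adjusted p = 0.0465). Again the groups did not overlap in either gene. Zfp963 on chromosome 8 went from 2.19 and 1.03 TPM to 6.58 and 4.98 TPM (log2 fold change 1.40, SE 0.38, adjusted p = 0.0454), and 41.6% of its words are shared with other genes, most of them with the gene model Gm20422. It too entered the set through its DMSO mean alone.

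The 33 members called lower spanned a wider range of levels. Of these, 7 entered the set through their control mean alone, so the rule fixed their direction, and Zfp930, Zfp800 and Zfp668 among the largest decreases are of this kind. Zfp930, on chromosome 8 (chr8:69209038-69230536, plus strand), stood at 8.26 and 5.86 TPM in controls and was listed at 0 in both DMSO libraries (adjusted p = 0.0181). Zfp800 stood at 8.54 and 17.6 TPM against 0.399 and 2.26 TPM, a log2 fold change of -2.64 (SE 0.53, adjusted p = 0.0259). Zfp593, whose human and yeast counterparts take part in building the large ribosomal subunit, stood at 15.1 and 21.5 TPM against 1.71 and 3.12 TPM (log2 fold change -2.51, SE 0.37, adjusted p = 0.0181). All control libraries lay above all DMSO libraries in these genes, but 71.5% of the words of Zfp593 are shared with E130218I03Rik, so its reads cannot be assigned with certainty. The change was steadier between replicates in Zfp7 on chromosome 15, at 38.3 and 35.03 TPM against 7.60 and 8.08 TPM (log2 fold change -2.09, SE 0.28, adjusted p = 0.0181). Zfp977 on chromosome 7 fell from 32.9 and 31.4 TPM to 6.86 and 6.80 TPM (log2 fold change -2.08, SE 0.28, adjusted p = 0.0181). In both, replicates of one group differed far less than the groups did. Zfp239, which is known to bind both DNA and RNA and shares none of its words with other genes, stood at 15.2 and 14.6 TPM against 2.57 and 3.32 TPM (log2 fold change -2.02, adjusted p = 0.0188). Zfp668, whose human counterpart takes part in DNA repair, stood at 4.61 and 8.92 TPM against 0.618 and 1.31 TPM (log2 fold change -1.95, adjusted p = 0.0294). Zfp989 of the chromosome 4 cluster completed the 8 members with the largest decreases and is described with its neighbours. The remaining members called lower had log2 fold changes from -1.87 in Zfp644, whose protein recruits H3 lysine 9 methyltransferases, to -1.04.

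**Figure D2:**
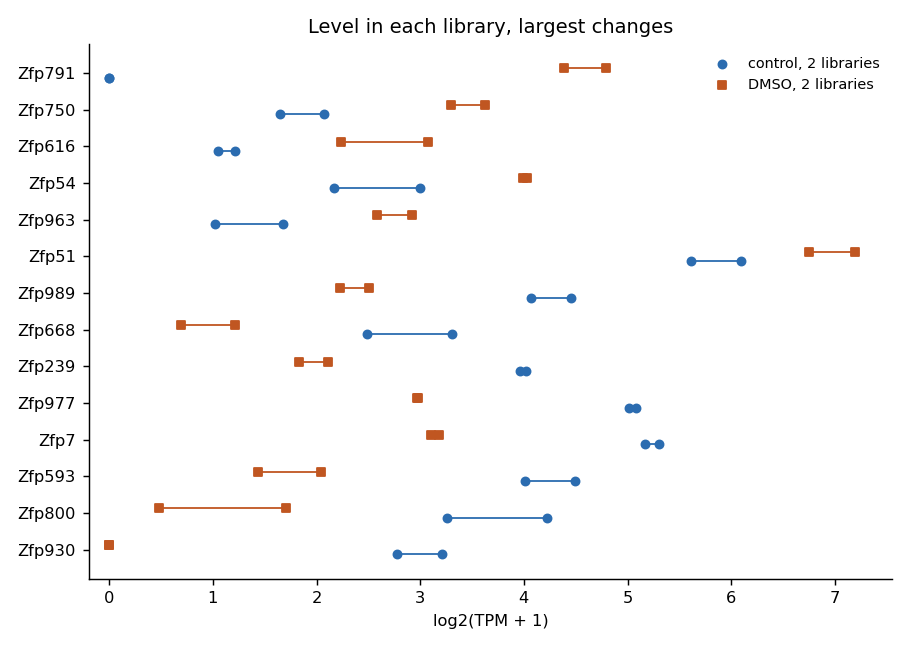
Level of the 6 members called higher and the 8 with the largest decreases among those called lower, as log2(TPM + 1); circles are the 2 control libraries, squares the 2 DMSO libraries, and a line joins libraries of one group. The groups do not overlap in any of the 14 genes, and Zfp791 and Zfp930 have a group listed at 0.

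Levels of the members ran over 2 orders of magnitude. The median of their mean TPM was 8.01 (quartiles 3.79 and 22.5), 84 members reached 10 TPM and 16 reached 50 TPM. Summed over all members, the level was 4837 and 4516 TPM in controls and 4200 and 3653 TPM with DMSO, or 0.630% and 0.579% against 0.544% and 0.457% of each library's listed sum. Both DMSO sums lay under both control sums, and whether less RNA per embryo or other transcripts taking a larger share lowered them cannot be told apart in TPM. Zfp707 had the highest mean and stood at 324.2, 336.4, 236.3 and 318.1 TPM in the 2 control and then the 2 DMSO libraries (adjusted p = 0.465). Zfp706 stood at 299.0, 266.0, 294.2 and 269.1 TPM (adjusted p = 0.993), and its small difference took either sign depending on the scaling between libraries. Zfp622, which acts in the maturation of the large ribosomal subunit, stood at 313.8, 327.9, 196.2 and 216.9 TPM (log2 fold change -0.63, adjusted p = 0.0974). Of these 3 genes none was called, although the DMSO libraries of Zfp707 and Zfp622 lay below their controls. Zfp655 stood at 138.6 and 111.8 TPM against 240.4 and 158.9 TPM (log2 fold change 0.65, adjusted p = 0.155). Zfp296, a factor known from pluripotent cells, was the only one of the 5 most abundant members to be called, at 231.5 and 242.1 TPM against 87.0 and 83.7 TPM (log2 fold change -1.46, SE 0.24, adjusted p = 0.0208). With the replicate block limma also called Zfp622 lower (adjusted p = 0.0217) and Zfp655 higher (adjusted p = 0.0295). At the lower edge, Zfp384, Zfp740 and Zfp956 lay just above a mean of 2 TPM, and Zfp993, Zfp605 and Zfp9 just below it.

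Members with a known task were grouped by it. Of 6 genes known to silence retroelements or to guard imprinted genes, 4 were members, and 1 of these 4 was called. The share called was 20.5% of all genes tested and 23.4% of those averaging 2 TPM or more. Zfp568, a KRAB repressor of a placental Igf2 transcript, was lower, at 14.4 and 16.5 TPM against 6.64 and 7.10 TPM (log2 fold change -1.06, SE 0.29, adjusted p = 0.0487). Zfp809, which silences retroviruses through their primer binding site, stood at 50.0 and 33.2 TPM against 54.1 and 48.2 TPM (adjusted p = 0.450). Zfp932, a repressor of endogenous retroviruses, stood at 32.4 and 23.7 TPM against 54.4 and 30.0 TPM (adjusted p = 0.309). The groups were separate in Zfp568 alone. In Zfp708 the control libraries themselves stood apart, at 7.52 and 1.32 TPM, with 3.80 and 3.07 TPM in the DMSO libraries, and its difference took either sign depending on the library left out. Zfp819 had a mean under 1 TPM and Zfp445, a guardian of imprints, was listed at 0 throughout.

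Among 10 genes that act in RNA processing, translation, SUMO conjugation or mitosis, 9 were members (the symbol Zfp385a ends in a letter). None was called in limma, where 20.5% of all genes tested and 23.4% of those averaging 2 TPM or more were. Of the 9, 1 was above 0 and 8 below (median log2 fold change -0.15). Under quantile normalisation 6 were below 0 and the median was -0.02, and 5 of the 8 took either sign depending on the library left out. They include Zfp598, a ubiquitin ligase at collided ribosomes, at 24.5, 26.6, 22.2 and 25.7 TPM, and Zfp207, a kinetochore protein, at 29.2, 37.3, 26.2 and 34.7 TPM. Control and DMSO values overlapped in both. Zfp830, which takes part in splicing and the DNA damage response, stood lower in both DMSO libraries, at 55.5 and 41.8 TPM against 26.9 and 25.9 TPM, and missed the threshold (adjusted p = 0.0740). With the replicate block limma called 2 of these 9 members lower, Zfp622 (adjusted p = 0.0217) and Zfp830 (adjusted p = 0.0233), where 2981 of the 12038 genes tested were. Among 17 general regulators of transcription and chromatin, 13 were members, of which 6 were above 0 and 7 below. Limma called 3 lower (23.1%, against 14.1% of all genes tested and 16.2% of those averaging 2 TPM or more). Zfp131 stood at 206.6 and 192.5 TPM against 84.4 and 101.0 TPM (log2 fold change -1.10, SE 0.25, adjusted p = 0.0320). Zfp292, a large transcription factor, fell from 16.1 and 17.7 TPM to 3.12 and 5.52 TPM (log2 fold change -1.79, SE 0.35, adjusted p = 0.0248). Zfp335, known for its role in neural progenitors, fell from 19.4 and 19.8 TPM to 6.32 and 9.69 TPM (log2 fold change -1.22, SE 0.32, adjusted p = 0.0429). In these 3 genes every DMSO library lay below every control library. Zfp143, which binds the promoters of many housekeeping genes, had a log2 fold change of -1.62 but was not called (SE 0.66, adjusted p = 0.119), and its values of 20.9 and 6.20 TPM in controls and 5.68 and 1.49 TPM with DMSO differed widely between replicates of each group, though the groups did not overlap. Replicate 1 was the higher in both groups, and with the replicate block limma called Zfp143 lower (adjusted p = 0.00544).

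Grouping by position was examined next. A cluster was taken as a run of at least 3 annotated numbered Zfp genes, expressed or not, in which neighbours lie at most 500 kb apart. The annotation holds 32 such clusters with 223 genes, and 114 of the 190 members lie in 27 of them. In clusters 70 of 114 members were below 0 (median log2 fold change -0.24, 19 called lower, 3 higher), and outside clusters 48 of 76 (median -0.18, 14 lower, 3 higher). Called lower were thus 16.7% and 18.4%, against 14.1% of all genes tested and 16.2% of those averaging 2 TPM or more. Called higher were 2.63% and 3.95%, against 6.42% and 7.22%. Of 17 clusters with 3 or more members, 13 had a median below 0 and 4 a median above 0, from -1.19 to 0.52. Each of these 4 medians lay on both sides of 0 when libraries were left out in turn, as did 2 of the 13. The highest, of 3 members at chr9:20345136-20605409, ranged from -0.29 to 0.997. Members of both directions occurred in 14 of the 17. Neighbouring members within a cluster had the same direction in 45 of 87 pairs (51.7%), and any pair of members had the same direction in 52.7% of pairs. The shares were close, and no test was made of the difference.

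**Figure D3:**
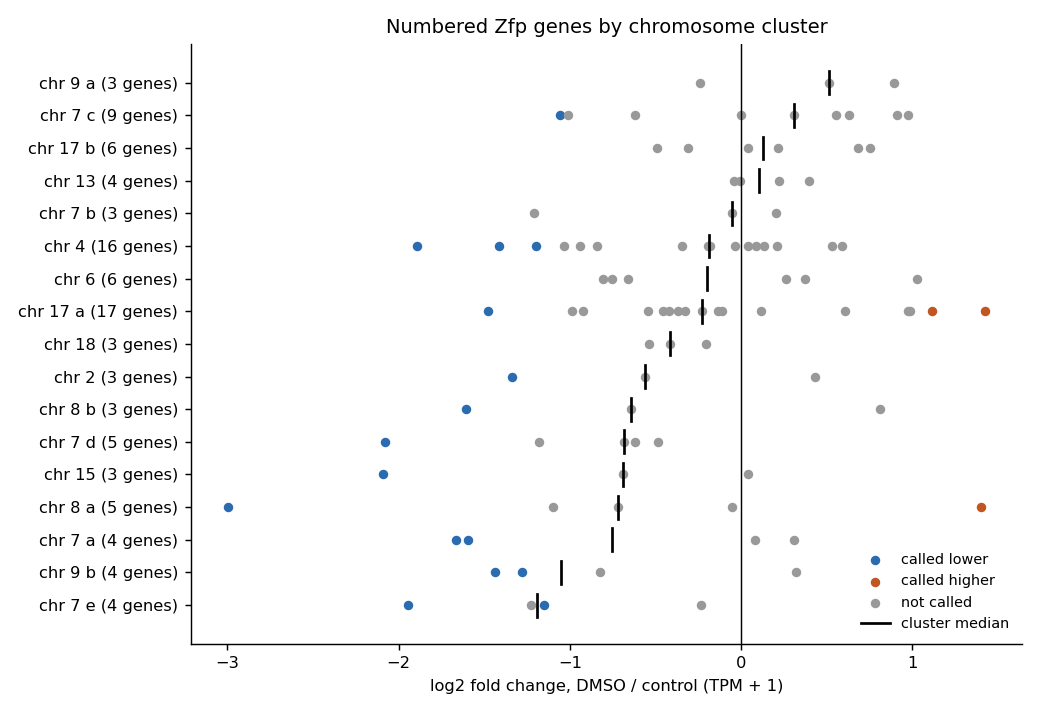
Log2 fold change (DMSO against control, TPM + 1) of the members in the 17 clusters with 3 or more members; each point is a gene, the bar is the cluster median, and letters tell clusters of one chromosome apart. Medians run from -1.19 to 0.52, and most clusters hold genes on both sides of 0.

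The largest cluster lies on chromosome 17 (chr17:21008903-23599487, 23 annotated genes, 17 members). Of these, 11 were below 0 and 6 above, with a median of -0.23. The cluster held 2 of the 6 members called higher, the neighbours Zfp54 and Zfp51. It held 1 called lower, Zfp758, at 22.9 and 36.8 TPM against 11.03 and 8.64 TPM (log2 fold change -1.48, adjusted p = 0.0328). That is 11.8% higher and 5.88% lower on 1 or 2 genes each. Among all genes tested the shares were 6.42% and 14.1%, and among those averaging 2 TPM or more 7.22% and 16.2%. Its summed level was 285.8 and 294.4 TPM in controls and 333.5 and 280.5 TPM with DMSO, so that the groups overlapped. Without Zfp51, its most abundant gene, the sum was 218.3 and 246.4 TPM against 187.9 and 174.2 TPM, with both DMSO libraries below both controls.

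The cluster on distal chromosome 4 (chr4:145510759-147848366, 18 annotated genes, 16 members) belongs to a region whose KRAB zinc finger genes are known to restrain endogenous retroviruses in embryonic stem cells. A median of 79.5% of the words of its members occurred in other genes, and kallisto divides such reads between genes by an estimate. Below 0 were 10 members and above it 6. Limma called 3 lower (18.8%, against 14.1% of all genes tested and 16.2% of those averaging 2 TPM or more). Zfp989 stood at 21.0 and 15.8 TPM against 3.68 and 4.68 TPM (log2 fold change -1.90, SE 0.32, adjusted p = 0.0210). Zfp988 fell from 48.0 and 48.2 TPM to 18.3 and 16.7 TPM (log2 fold change -1.41, SE 0.26, adjusted p = 0.0233). Zfp981 fell from 92.5 and 111.6 TPM to 41.0 and 46.6 TPM (log2 fold change -1.20, SE 0.26, adjusted p = 0.0301). Each of the 3 had separate groups, while Zfp982, the most abundant gene of the cluster, stood at 96.5 and 120.0 TPM against 179.1 and 147.7 TPM and was not called (log2 fold change 0.59, adjusted p = 0.144). The summed level of the cluster, 536.1 and 587.8 TPM in controls and 549.8 and 473.8 TPM with DMSO, overlapped between groups. Without Zfp982 it was 439.6 and 467.8 TPM against 370.8 and 326.02 TPM, and the groups did not overlap.

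**Figure D4:**
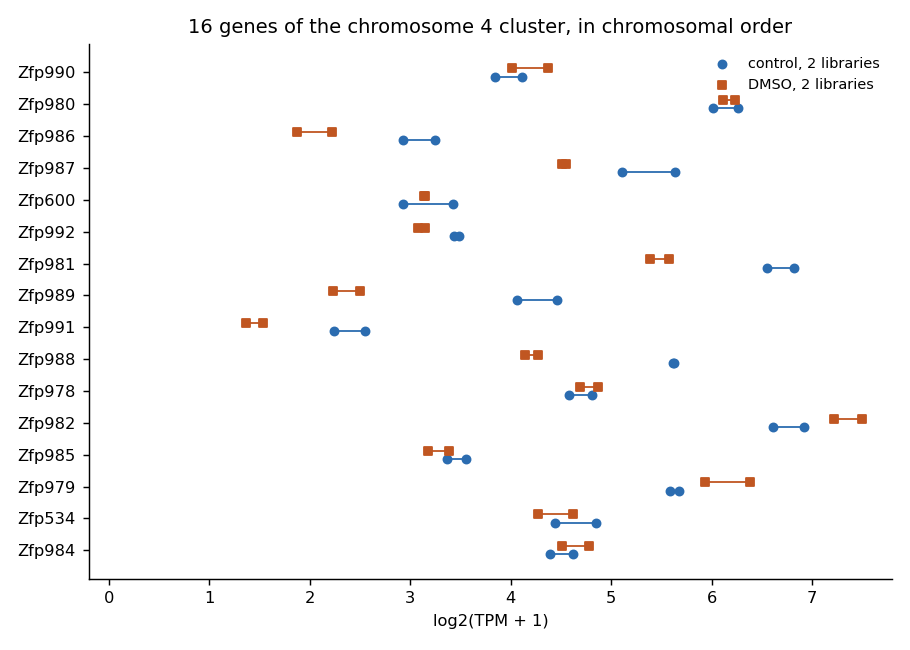
Level of the 16 members of the chromosome 4 cluster as log2(TPM + 1), from the lowest coordinate (top) to the highest (bottom); circles are the 2 control libraries, squares the 2 DMSO libraries, and a line joins libraries of one group. Zfp981, Zfp989 and Zfp988 were called lower, while Zfp982 and Zfp979 lie higher in both DMSO libraries without being called.

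The other clusters with at least 5 members differed in their medians. At chr7:42473386-43618285 all 5 members were below 0 (median -0.68), with Zfp977 called, and the summed level was 57.6 and 53.5 TPM against 21.7 and 18.9 TPM. Zfp977 carried more of it in controls than the other members together, and without Zfp977 the sum was 24.6 and 22.1 TPM against 14.8 and 12.1 TPM. At chr7:29768552-30169750, 6 of 9 members were above 0 (median 0.31), yet the only call was Zfp568, which was lower. The 9 members ran from Zfp568 (-1.06) to Zfp420 (0.97), and Zfp420 stood at 4.19 and 2.11 TPM against 10.1 and 4.61 TPM (adjusted p = 0.160). The cluster at chr8:69209038-69791178 had the widest range of these, from Zfp930, listed at 0 with DMSO, to Zfp963, called higher, within 5 members. Both ends entered the set through 1 group alone, so the rule fixed their direction. Zfp869, Zfp866 and Zfp868 ran from -1.10 to -0.05. At chr17:32765496-33631779, 4 of 6 members were above 0 (median 0.13), from Zfp101 (-0.49) to Zfp870 (0.75), and at chr6:47819266-48623227, 3 of 6 (median -0.20), from Zfp777 (-0.81) to Zfp956 (1.03). None of their members was called in limma. Among smaller clusters, all 4 members at chr7:127233061-127885996 were below 0 (median -1.19). Zfp668 and Zfp553 were called lower, where 14.1% of all genes tested and 16.2% of those averaging 2 TPM or more were. At chr9:22055411-22307648, Zfp810 and Zfp599 were called lower (median -1.05), whereas Zfp809, 1 of its 4 members, lay above 0.

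Features of the proteins and transcripts went with the change only weakly. A KRAB A box pattern was found in the translated coding sequence of 81 members and not in 107, and 2 could not be read. The pattern misses some KRAB domains, so a missing match does not show that the domain is absent. Of members with the pattern, 48 of 81 were below 0 (median -0.24, 17 lower, 2 higher), and of those without it 69 of 107 (median -0.20, 16 lower, 4 higher). Called lower were 21.0% and 15.0%, against 14.1% of all genes tested and 16.2% of those averaging 2 TPM or more. Called higher were 2.47% and 3.74%, against 6.42% and 7.22%. Members held a median of 10 fingers, with a range from 0 to 36. Those with 10 or more fingers had a median log2 fold change of -0.29 (104 genes), those with 3 to 9 fingers -0.18 (65 genes) and those with 0 to 2 fingers -0.05 (19 genes), which became 0.093 under quantile normalisation. Over the 188 genes read, the number of fingers had a Pearson's r of -0.02 (Spearman's rho -0.05) with the log2 fold change. Across the 190 genes, which share their libraries and are not independent, Pearson's r with the log2 fold change was -0.11 (Spearman's rho -0.04) for the share of words held in common with other genes, 0.10 (0.08) for transcript length and -0.06 (-0.06) for GC content. The median log2 fold change was -0.24 in the 125 members that share under 10% of their words, -0.03 in the 48 that share from 10% to under 50% and -0.56 in the 17 that share 50% or more, so the 3 classes showed no steady order. Of these 17 members, 13 were below 0, 5 were called lower and none higher. The 5 are 29.4%, against 14.1% of all genes tested and 16.2% of those averaging 2 TPM or more. Of all 12038 genes tested, 6401 were below 0. The difference was not tested. The chromosome 4 cluster holds 11 of the 17, and the part of shared reads in this was not tested.

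Promoter sequence from RefSeq (GRCm38.p6, from 250 bases before to 50 bases after the start) was matched for 152 of the 190 members. The motif bound by Zfp143, itself the product of a numbered Zfp gene, occurred on either strand in 15 of them (9.87%) and in 650 of 27025 promoters (2.41%). The 27025 genes with a promoter outnumber the 12038 tested and were not limited by level as the members were. Shares of members and of all promoters are therefore not like for like, and the difference was not tested. Members with a match were 8 above and 7 below 0, and 2 were called, Zfp444 and Zfp949, both lower. That is 13.3%, against 14.1% of all genes tested and 16.2% of those averaging 2 TPM or more. AAGATGGC, a motif bound by Yy1, occurred in 7 members (4.61%) and in 3.19% of all promoters. Of the 7, 2 were called lower, Zfp292 and Zfp617. That is 28.6%, on 2 genes, against 14.1% of all genes tested and 16.2% of those averaging 2 TPM or more. The motif bound by Dux occurred in none of the 152 and in 0.0407% of all promoters. A match is a description of the letters and does not show binding. Matches to the Zfp143 motif are shown for Zfp444 and Zfp949, both genes on the plus strand, with the match in capitals on the strand opposite to the motif. The match of Zfp444 lies at chr7:6172373-6172384, before the RefSeq start used here but after the start of the gene in GENCODE, and that of Zfp949 at chr9:88548027-88548038, after both starts.
Zfp949: GGGTAATGTAGT
Zfp444: GGGAGATGTAGT
Zfp444 stood at 19.6 and 21.6 TPM against 7.16 and 6.82 TPM (log2 fold change -1.43, adjusted p = 0.0258), and Zfp949 at 41.3 and 28.3 TPM against 16.2 and 11.7 TPM (log2 fold change -1.25, adjusted p = 0.0425).

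The corepressor genes through which KRAB zinc finger proteins act were set beside them. All 27 listed genes were in the table, 19 were below 0 and 8 above (median log2 fold change -0.45, or -0.22 under quantile normalisation), and 6 were called lower and 1 higher. That is 25.9% of them, against 20.5% of all genes tested. Trim28, which binds the KRAB domain, stood at 525.4 and 566.4 TPM against 303.8 and 380.5 TPM, lower in both DMSO libraries but short of the threshold (log2 fold change -0.68, adjusted p = 0.0934). Setdb1, the methyltransferase it recruits, stood at 31.7 and 30.1 TPM against 23.1 and 22.2 TPM (log2 fold change -0.43, adjusted p = 0.252). The levels of these central genes thus lay lower without a call. With the replicate block limma called Trim28 lower (adjusted p = 0.0157) but not Setdb1 (adjusted p = 0.139). Of the HUSH complex, which spreads H3 lysine 9 methylation, Pphln1 fell from 56.6 and 54.6 TPM to 12.4 and 15.6 TPM (log2 fold change -1.92, SE 0.28, adjusted p = 0.0181). Tasor fell from 33.6 and 37.4 TPM to 16.1 and 17.1 TPM (log2 fold change -1.05, SE 0.27, adjusted p = 0.0408), and Mphosph8 was not called (adjusted p = 0.415). The remaining calls among the lower genes were Morc3, an ATPase of silenced chromatin (-1.21, adjusted p = 0.0327), the methyltransferase gene Ehmt1 (-1.13, adjusted p = 0.0449), the remodeller gene Smarcad1 (-1.10, adjusted p = 0.0445) and the deacetylase gene Hdac1 (-0.99, adjusted p = 0.0402). The HP1 genes differed in sign. Cbx1 rose from 23.0 and 19.4 TPM to 68.0 and 51.3 TPM (log2 fold change 1.44, SE 0.29, adjusted p = 0.0256), while Cbx3 stood at 155.3 and 139.0 TPM against 88.3 and 84.9 TPM (log2 fold change -0.76, adjusted p = 0.0696) and Cbx5 at 71.1 and 61.1 TPM against 33.2 and 37.6 TPM (log2 fold change -0.88, adjusted p = 0.0573). The number of lower corepressor genes depended on scaling, with 3 under median-ratio scaling and 1 under quantile normalisation, beside 1 higher in each. With 1 library left out, some or all calls among the 27 were lost, as they were among all genes tested.

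**Figure D5:**
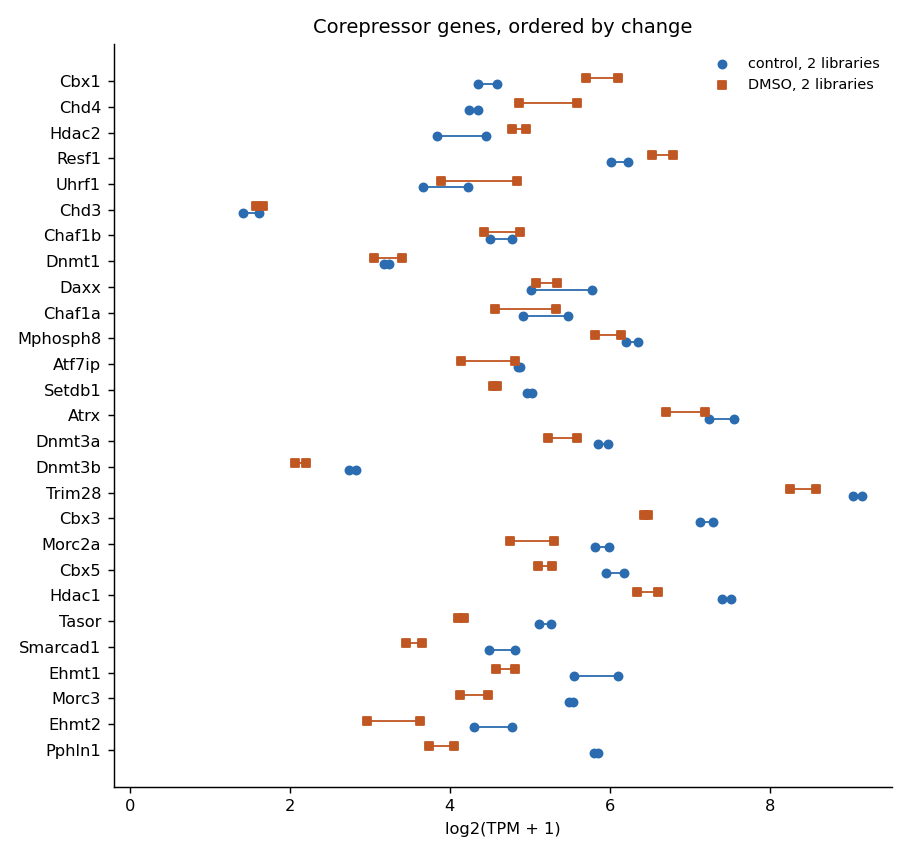
Level of the 27 corepressor genes as log2(TPM + 1), ordered by their log2 fold change from the highest (top) to the lowest (bottom); circles are the 2 control libraries, squares the 2 DMSO libraries, and a line joins libraries of one group. Cbx1 lies highest in rank with separate groups, Pphln1 lowest, and 19 of the 27 genes have a log2 fold change below 0.

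The 3 Zfp genes set aside by name differed from each other. Zfp352, a gene of the 2-cell stage, stood at 142.5 and 89.0 TPM in controls and at 550.6 and 373.2 TPM with DMSO (log2 fold change 2.00, adjusted p = 0.0209). Zfp57, a KRAB protein that protects imprints, stood at 5.56 and 9.29 TPM against 4.98 and 3.11 TPM (adjusted p = 0.199), and Zfp42, the pluripotency marker also called Rex1, at 6.18 and 4.23 TPM against 1.37 and 3.74 TPM (adjusted p = 0.182). DMSO libraries lay above the controls in Zfp352 and below them in the other two.

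Marker transcripts of several cell types also differed between the groups. The summed level of 8 genes of the 2-cell embryo was 816.6 and 592.4 TPM in controls and 2294 and 1602 TPM with DMSO, 3 of them were called higher (Zfp352, Tcstv1 and Tcstv3, where 6.42% of all genes tested were called higher), and the most abundant was Tcstv3. The sum of 9 oocyte genes was 1107 and 710.8 TPM against 2860 and 2208 TPM, with Bmp15 and Oosp1 called higher and Oosp1 the most abundant, while Nlrp5 was at or near 0. Oosp1 carried most of that sum, which without it was 229.5 and 135.0 TPM against 774.7 and 444.5 TPM. Both sums were higher in both DMSO libraries. Not all oocyte genes lay that way, since Zp3 stood at 1.56 and 2.35 TPM against 1.44 and 0.956 TPM (log2 fold change -0.42, adjusted p = 0.402) and Padi6 at 0.860 and 3.32 TPM against 0 and 1.65 TPM (log2 fold change -0.80, adjusted p = 0.352). Of 4 sperm genes, Prm2 (2.56 and 2.86 TPM against 11.04 and 6.79 TPM) and Tnp1 (0.281 and 0 TPM against 2.08 and 1.69 TPM) were called higher, and the sum was 2.84 and 3.38 TPM against 13.5 and 8.57 TPM. None of 8 cumulus or granulosa cell genes reached a mean of 1 TPM (summed 2.00, 0.932, 2.42 and 2.19 TPM), and none of 6 genes of later embryos, led by Nanog, was called (summed 22.8, 17.1, 26.6 and 24.9 TPM). The part of these transcripts in the lower share of the numbered Zfp genes was not tested. Replicate 1 also exceeded replicate 2 in 121 of 190 members in each group (63.7%), where all genes tested gave 61.8% in controls and 53.8% with DMSO.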

How the data were processed

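The authors amplified RNA with a SMARTer low-input kit, pseudoaligned the reads with kallisto to the Ensembl transcriptome of GRCm38 (mm10), summed transcripts per gene with tximport, and deposited TPM values. Their own test, made on estimated counts, was not repeated. TPM keeps no depth, so the depth of the libraries is unknown here, no count test was run, and no counting error is given. Names and places came from GENCODE M21 on GRCm38, which named 29668 of 30049 genes, and promoters from RefSeq. Zfp410 is not analysed here. The 12038 genes that averaged 1 TPM or more were fitted in limma (version 3.58.1, R 4.3.3) after log2(TPM + 1) (eBayes with a trend, no replicate block, two-sided, Benjamini-Hochberg adjustment over all of them at 0.05). Fingers were counted as C-x(2,4)-C-x(12)-H-x(3,5)-H in translated coding sequences. Named genes are the 8 largest called changes per direction without overlap, the 5 highest means, the extremes of clusters with 5 or more members, those nearest 2 TPM, the role groups, corepressors and markers; Zfp644, Zfp758, Zfp553, Zfp599, Zfp810, Zfp444, Zfp949, Zfp617, Zfp979 and Zfp534 were named after their values were seen. The members and lists were chosen with earlier results of these data known. The steps were tested on simulated data, whose variances were redrawn from the fitted prior after a first simulation with raw variances recovered none of the planted genes; the raw-variance runs kept beside it recovered fewer than the redrawn ones. Alternatives were another pseudocount (0.1), filter (none, 5 TPM), variance model, scaling, replicate block, cluster gap (250 kb, 1 Mb) and member rule, and leaving out each library.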

Additional observations from a re-analysis of the deposited data

How the results depend on the processing

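The median log2 fold change of the numbered Zfp genes stayed below 0 in every alternative and, leaving aside the choice of members by 1 group, ran from -0.29 without control replicate 2 to -0.12 under quantile normalisation. Choosing members by a DMSO mean of at least 2 TPM gave -0.091 and by a control mean -0.28, but each rule leaves out members that pass through the other group alone and so fixes the direction of its shift. With no filter on low values limma called 0 of the 22257 genes fitted, and so 0 members and 0 corepressor genes (5368 genes at an unadjusted p under 0.05). Leaving out a library removed some or all calls among members, corepressor genes and all genes tested. A lone library is then assumed to vary like the other group. Only 42 members were above 0 among those with a mean of at least 5 TPM, under either use of that filter, since fewer genes are counted. For the same reason members with under 10% of words shared gave 19 lower and 47 above 0. Members chosen by a control mean of at least 2 TPM gave 3 calls higher, since that rule leaves out Zfp791, Zfp616 and Zfp963, whose control means lie below it. Corepressor genes called lower numbered 2 without a trend in eBayes, 3 under median-ratio scaling and 1 under quantile normalisation; the cause was not tested. Quantile normalisation raised the share of higher calls among all genes tested from 31.3% to 49.0%, and median-ratio scaling to 39.0%.

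The replicate numbers do not show a shared culture, and 2 pairs are too few to show pairing (correlation of deviations r = 0.35). With the replicate block, 25 members were higher and 52 lower, all 39 calls among them, and 3 corepressor genes were higher and 11 lower. Of the 12038 genes tested, 2151 were then higher and 2981 lower. With the block and quantile normalisation, 31 members were higher and 4 corepressor genes, beside 2354 of the 12038 genes tested. Of the 39 called members, 35 kept the call with a pseudocount of 0.1, 32 without a trend, 37 under median-ratio scaling and 32 under quantile normalisation. None changed direction, but only scaling could have reversed one. A pseudocount keeps groups that do not overlap in order, and the trend leaves the log2 fold change as it was. Clusters with a median below 0 numbered 11 to 15 of those with 3 or more members.

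Some genes that were not called changed sign (log2 fold change). Zfp706 became 0.045 under median-ratio scaling and 0.21 under quantile normalisation, and Zfp708 0.097 with a pseudocount of 0.1 and 0.040 under median-ratio scaling. Under quantile normalisation Daxx became 0.049, Zfp207 0.093, Zfp598 0.092 and Zscan4d 0.032. The values under quantile normalisation were the same with the block added. Leaving out a library gave ranges that span 0 for Zfp708 (-0.95 to 0.93), Zfp346 (-0.78 to 0.47), Zfp451 (-0.58 to 0.23), Zfp207 (-0.33 to 0.069), Zfp36 (-0.20 to 0.091), Zfp598 (-0.19 to 0.011), Zfp706 (-0.087 to 0.081), Zfp993 (-0.69 to 0.058), Zfp9 (-0.26 to 0.32), Zfp534 (-0.40 to 0.0098), Zscan4d (-0.22 to 0.12), Krt18 (-0.0024 to 1.29), Zfp384 (-0.73 to 0.17), Daxx (-0.56 to 0.19), Chaf1a (-0.63 to 0.13), Chaf1b (-0.21 to 0.24), Dnmt1 (-0.16 to 0.19) and Uhrf1 (-0.057 to 0.89).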

Other observations

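Other zinc finger families gave values beside those of the numbered Zfp genes. Proteins of the Zbtb genes join zinc fingers to a BTB domain that mediates pairing. Of 23 numbered Zbtb genes that averaged 2 TPM or more, 13 had a log2 fold change above 0 and 10 below (median 0.10). Limma called 1 of the 23 higher and none lower (4.35%, against 20.5% of all genes tested and 23.4% of those averaging 2 TPM or more). That gene was Zbtb32, at 4.52 and 5.39 TPM in controls and 12.6 and 15.0 TPM with DMSO (log2 fold change 1.31, adjusted p = 0.0338). With the replicate block limma called 11 of the 23 Zbtb genes, against 5132 of the 12038 genes tested. Of 5 numbered Zkscan genes, 3 were below 0 and 2 above, and 1 was called, Zkscan14, at 23.1 and 22.8 TPM against 6.37 and 6.49 TPM (log2 fold change -1.69, adjusted p = 0.0209). Both numbered Zscan genes, Zscan21 and Zscan29, were below 0 and not called (adjusted p = 0.123 and 0.565). Whether these families differ from the numbered Zfp genes was not tested.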
